A study of Mus musculus with 14 samples.

Results

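Of 105895 regions enriched for dimethylated H3K4 (H3K4me2) in mouse liver, 3018 were both shorter than 800 bp and more than 50 kb from the body of every protein-coding gene. They are called distal regions here. The list of wild type (WT) liver held 1532 of them among 54219 regions (2.83%), and the list of YAP transgenic liver held 1486 among 51676 (2.88%). The regions were chosen by measured values, the width of a listed region and its distance to genes, so both are given as a description and support nothing.

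The study profiled H3K4me2, H3K4me1 and LSD1 by chromatin immunoprecipitation sequencing in livers of WT and YAP transgenic mice, all of strain C57BL/6, with 2 libraries per antibody and genotype and 1 input library per genotype. YAP was induced in liver with doxycycline at 50 mg per litre of drinking water for 10 days. The labels carry this treatment on every sample without saying whether WT mice drank it, and they give neither the promoter driving the transgene nor the animals' sex and age. The authors deposited 1 list per antibody and genotype, which combines both libraries.

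H3K4me2 is found at active and poised promoters and enhancers. H3K4me1 is best known from enhancers, where it often flanks H3K4me2. LSD1 (KDM1A) is a demethylase that removes the mono- and dimethyl mark from this lysine, in complexes such as CoREST. YAP is a transcriptional coactivator of the Hippo pathway, reaches DNA mainly through TEAD proteins and drives liver growth.

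Liver identity was visible in the H3K4me2 lists at the genes for albumin (Alb, with 5 WT and 4 YAP regions) and for the hepatocyte factor HNF4A (Hnf4a, with 11 and 12). The apolipoprotein gene Apoa1 had 1 region in each list. A count of regions at a gene is not a level of the mark. The biliary keratin genes Krt7 and Krt19 had 0 regions in either list. In bulk liver, a mark carried by fewer cells and a weaker mark in every cell cannot be told apart. Because each list combines both libraries, there is no replicate spread and no test. Intervals are 95% intervals (Wilson for shares, Newcombe for differences of shares) that cover counting error only, and the sequencing depth behind the lists is unknown.

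The name "far from any gene" holds for protein-coding genes only. In the WT list 521 distal regions (34.0%, 31.7 to 36.4) lay inside an annotated gene of another type, and 495 of these lay in a long non-coding RNA (lncRNA) gene. In the YAP list 518 (34.9%, 32.5 to 37.3) did so, with 496 in a lncRNA gene. Over all regions the share inside such genes was 13.0% in WT and 13.2% in YAP. Only 228 WT and 215 YAP regions under 800 bp were more than 50 kb from every annotated gene.

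Several distal regions lay beside microRNA hairpins, whose mature sequences are shown because these are the functional products encoded next to the mark. These loci were chosen after the values were seen. Each sequence is given 5′ to 3′ from RefSeq (GRCm38.p6), with the seed, bases 2 to 8, in capitals.
miR-30a-5p: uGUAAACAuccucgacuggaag
miR-9-5p: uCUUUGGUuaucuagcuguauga
miR-137-3p: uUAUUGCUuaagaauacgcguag
miR-101a-3p: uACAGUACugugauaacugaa
miR-17-5p: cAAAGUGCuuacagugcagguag
miR-20a-5p: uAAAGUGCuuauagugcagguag
miR-18a-5p: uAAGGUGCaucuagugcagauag
miR-19a-3p: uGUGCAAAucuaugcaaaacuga
miR-19b-3p: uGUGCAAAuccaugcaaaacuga
miR-92a-3p: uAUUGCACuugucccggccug
miR-99a-5p: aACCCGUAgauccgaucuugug
let-7c-5p: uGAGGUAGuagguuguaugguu
In this set miR-17-5p and miR-20a-5p share the seed AAAGUGC, and miR-19a-3p and miR-19b-3p share GUGCAAA.

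Of 1005 annotated hairpins, 153 were more than 50 kb from every protein-coding gene. Within 5 kb of a hairpin, distal regions were found at 16 hairpins in WT and at 10 in YAP. Hairpins of 1 cluster share regions: counted once where they lay within 10 kb of each other, they made 9 loci in WT and 7 in YAP. These hairpins include some just under 50 kb from a gene, with the region itself beyond that limit. Over all 153 far hairpins, any H3K4me2 region lay within 5 kb of 11 in WT (7.19%) and of 9 in YAP (5.88%).

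At Mir30a (chr1:23272269-23272339), an abundant microRNA of many tissues, 2 WT distal regions with scores 35 and 32 ended 0.374 kb or more before the hairpin. In YAP a single region of 1321 bp with score 205 covered the hairpin, flanked by 2 distal regions with scores 105 and 41 that were not listed in WT. The mark was therefore listed over the hairpin in YAP and only beside it in WT.

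Mir9-2 (chr13:83738814-83738885), which encodes the neuronal microRNA miR-9, lay inside a distal region in each genotype. The WT region was 195 bp wide with score 33, and the YAP region was 502 bp wide with score 72. Scores are the authors' and rank regions only within a list.

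Mir137 (chr3:118433857-118433929) lay inside a longer H3K4me2 region in both lists, 1347 bp wide in WT and 2203 bp in YAP, with 2 distal regions of each genotype on one side. At Mir101a (chr4:101346945-101347027) 3 distal regions of each genotype lay from 2.72 kb (WT) and 3.14 kb (YAP) off the hairpin. Both loci were marked alike in position in the 2 lists.

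The cluster that begins with Mir17 (chr14:115043671-115043754), known as an oncogenic cluster under MYC control, had 2 WT distal regions of 206 and 197 bp before it, neither listed in YAP. YAP had 1 distal region of 419 bp farther out, not listed in WT, which lay within 5 kb of part of the cluster only. Longer regions, 922 bp in WT and 1237 bp in YAP, were listed in both genotypes nearer the cluster. Mir99a (chr16:77598936-77599000) had 2 WT distal regions on one side, with scores 31 and 79 and widths 362 and 380 bp, and no YAP H3K4me2 region within 5 kb. The adjacent Mirlet7c-1 had 1 of them within 5 kb.

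**Figure D1:**
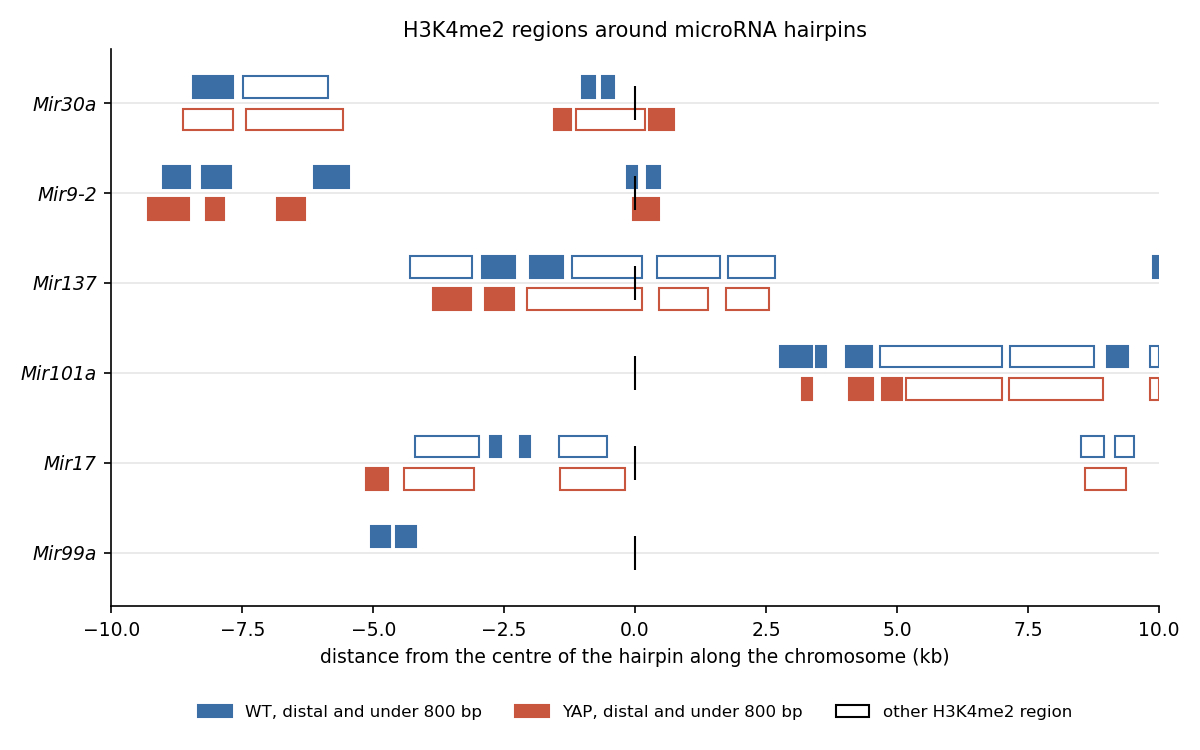
H3K4me2 regions within 10 kb of 6 microRNA hairpins; the x axis is the distance from the hairpin's centre in kb, boxes are regions of the WT (blue) and YAP (red) lists, filled boxes are distal regions under 800 bp and open boxes all others. Mir99a has 2 filled WT boxes and no YAP box, while the Mir30a hairpin lies inside an open YAP box of 1321 bp and in no WT box.

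Distal regions also covered annotated starts of lncRNA genes. Of 3372 RefSeq promoter windows more than 50 kb from protein-coding genes (250 bases before to 50 after a start), 157 (4.66%) held a WT H3K4me2 region and 162 (4.80%) a YAP one. Distal regions lay in 70 windows of 64 genes in WT and in 70 windows of 63 genes in YAP, and 6 and 4 of these windows had a distal region that also overlapped LSD1. Windows are shown for Dubr, Gm40822, Gm33162, C130071C03Rik and Gm35071, picked after the values were seen as cases with LSD1, with 1 genotype only, or listed across the whole window in both. Each is printed 5′ to 3′ on the gene's strand from RefSeq (GRCm38.p6), and capitals mark bases inside a distal region of either list.
Dubr, chr16:50732724-50733023, minus strand: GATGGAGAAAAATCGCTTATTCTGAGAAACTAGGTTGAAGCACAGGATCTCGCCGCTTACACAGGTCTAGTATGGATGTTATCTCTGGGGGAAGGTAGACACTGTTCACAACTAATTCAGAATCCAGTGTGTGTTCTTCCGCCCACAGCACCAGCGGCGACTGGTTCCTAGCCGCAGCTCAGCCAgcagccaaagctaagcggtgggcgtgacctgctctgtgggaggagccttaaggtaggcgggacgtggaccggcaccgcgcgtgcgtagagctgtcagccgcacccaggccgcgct
Gm40822, chr11:31169797-31170096, minus strand: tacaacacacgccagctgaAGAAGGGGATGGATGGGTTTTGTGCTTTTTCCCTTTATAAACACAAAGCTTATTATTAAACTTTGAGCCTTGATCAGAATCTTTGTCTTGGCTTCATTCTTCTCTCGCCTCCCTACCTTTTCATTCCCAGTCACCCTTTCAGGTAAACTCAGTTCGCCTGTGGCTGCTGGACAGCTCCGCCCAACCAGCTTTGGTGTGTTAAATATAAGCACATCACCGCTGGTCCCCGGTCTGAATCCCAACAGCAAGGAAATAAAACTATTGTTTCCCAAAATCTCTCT
Gm33162, chr3:101517184-101517483, minus strand: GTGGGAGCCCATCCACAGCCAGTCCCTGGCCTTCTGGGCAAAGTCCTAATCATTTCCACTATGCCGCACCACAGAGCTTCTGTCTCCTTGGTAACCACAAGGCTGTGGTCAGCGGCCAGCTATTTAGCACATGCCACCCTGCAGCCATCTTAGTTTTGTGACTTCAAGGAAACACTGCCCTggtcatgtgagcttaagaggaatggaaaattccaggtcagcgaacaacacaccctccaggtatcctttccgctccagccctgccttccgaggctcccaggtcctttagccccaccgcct
C130071C03Rik, chr13:83732243-83732542, plus strand: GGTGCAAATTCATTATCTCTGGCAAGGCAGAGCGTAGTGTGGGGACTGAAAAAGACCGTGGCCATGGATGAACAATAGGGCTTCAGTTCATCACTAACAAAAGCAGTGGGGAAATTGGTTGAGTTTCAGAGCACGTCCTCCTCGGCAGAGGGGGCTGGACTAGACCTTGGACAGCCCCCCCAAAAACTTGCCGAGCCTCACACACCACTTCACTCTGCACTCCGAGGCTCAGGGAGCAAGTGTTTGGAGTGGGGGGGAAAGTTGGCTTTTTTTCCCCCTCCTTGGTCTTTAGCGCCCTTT
Gm35071, chr12:52446141-52446440, plus strand: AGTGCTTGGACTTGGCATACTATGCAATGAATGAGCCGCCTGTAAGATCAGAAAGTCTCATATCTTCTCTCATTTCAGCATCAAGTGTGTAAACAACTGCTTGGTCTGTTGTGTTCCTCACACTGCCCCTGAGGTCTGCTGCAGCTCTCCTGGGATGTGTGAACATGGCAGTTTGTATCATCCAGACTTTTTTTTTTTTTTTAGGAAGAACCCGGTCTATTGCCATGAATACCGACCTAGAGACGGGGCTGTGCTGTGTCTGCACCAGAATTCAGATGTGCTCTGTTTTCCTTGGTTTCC

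At Dubr, a lncRNA gene 142 kb from Ccdc54, distal regions covered 183 bases of the window in WT and 185 in YAP, with scores 183 and 186. The YAP region overlapped a YAP LSD1 region of score 1000, whereas the LSD1 region of the WT list lay in the window but not on the WT distal region. At Gm40822 the WT distal region covered 281 bases with score 134 and overlapped LSD1 of both lists, and no YAP H3K4me2 region lay in the window. H3K4me2 was thus listed in 1 genotype at a start where LSD1 was listed in both.

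At Gm33162 the WT distal region covered 181 bases with score 51 and overlapped WT LSD1 only, with no YAP H3K4me2 region in the window. C130071C03Rik, the host of the Mir9-2 hairpin, showed the reverse: all 300 bases lay in a YAP distal region of score 70 and none in a WT region. A WT distal region of 653 bp with score 51 lay close by. It began at -6.13 kb from the hairpin's centre, and the YAP region ended at -6.30 kb. Gm35071 lay wholly inside a distal region of both lists, with scores 218 in WT and 90 in YAP.

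Short motif letters were counted on both strands of the windows. GGAATG, the core bound by TEAD proteins, was in 14 of the 70 WT windows and 12 of the 70 YAP windows (17.1%), against 17.4% of far windows and 14.7% of all 32851 windows. TGTTTAC, a forkhead motif, was in 8.57% and 7.14%, against 4.74% of far and 3.65% of all windows. TGACTCA (AP-1) was in 4.29% and 11.4%, against 6.73% and 5.20%. With 3 WT and 8 YAP windows behind the AP-1 shares, and 6 and 5 behind the forkhead shares, these are descriptions of letters and not of bound sites.

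The remaining motifs were counted in the same way. GTTAAT, part of the HNF1 site, was in 15.7% of WT and 12.9% of YAP windows, against 11.4% of far and 7.10% of all windows. AGGTCA, the repeat unit of nuclear receptor sites, was in 21.4% and 17.1%, against 19.4% and 16.3%. CCGGAAG (ETS) was in 2.86% and 4.29%, against 2.22% and 8.86%. Median GC content was 47.5% and 47.7% in the windows with a distal region, 45.7% in far windows and 52.7% in all windows.

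Presence in both genotypes was the first comparison. In the WT list 893 of 1532 distal regions (58.3%, 55.8 to 60.7) overlapped a YAP H3K4me2 region by at least 1 bp, against 73.6% of all WT regions. In the YAP list 871 of 1486 (58.6%, 56.1 to 61.1) overlapped a WT region, against 78.4% of all YAP regions. Joined across lists, the distal regions formed 2275 loci, of which 1021 were listed in both genotypes, 639 in WT only and 615 in YAP only.

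Other regions under 800 bp give the closer comparison, since long regions overlap more easily. They were listed in the other genotype in 60.0% of cases in WT and 67.0% in YAP. Distal regions were 1.70 percentage points lower in WT, with an interval of -4.25 to 0.802 that includes 0, and 8.39 points lower in YAP (-11.0 to -5.86). Against short regions 5 to 50 kb from a gene, the differences were -0.624 points (-3.61 to 2.34) in WT and -1.92 (-4.94 to 1.09) in YAP. Both intervals include 0. In the YAP list the short regions inside genes (66.3%) and up to 5 kb from them (72.5%) were above the distal ones.

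Reweighting the other short regions to the width and score classes of the distal regions gave 62.8% in WT and 68.4% in YAP. The difference, distal minus reweighted, was then -4.47 points in WT and -9.77 in YAP. Regions of 800 bp or more that were also over 50 kb from genes were listed in both genotypes far more often, in 341 of 376 cases in WT (90.7%) and 344 of 369 in YAP (93.2%).

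**Figure D2:**
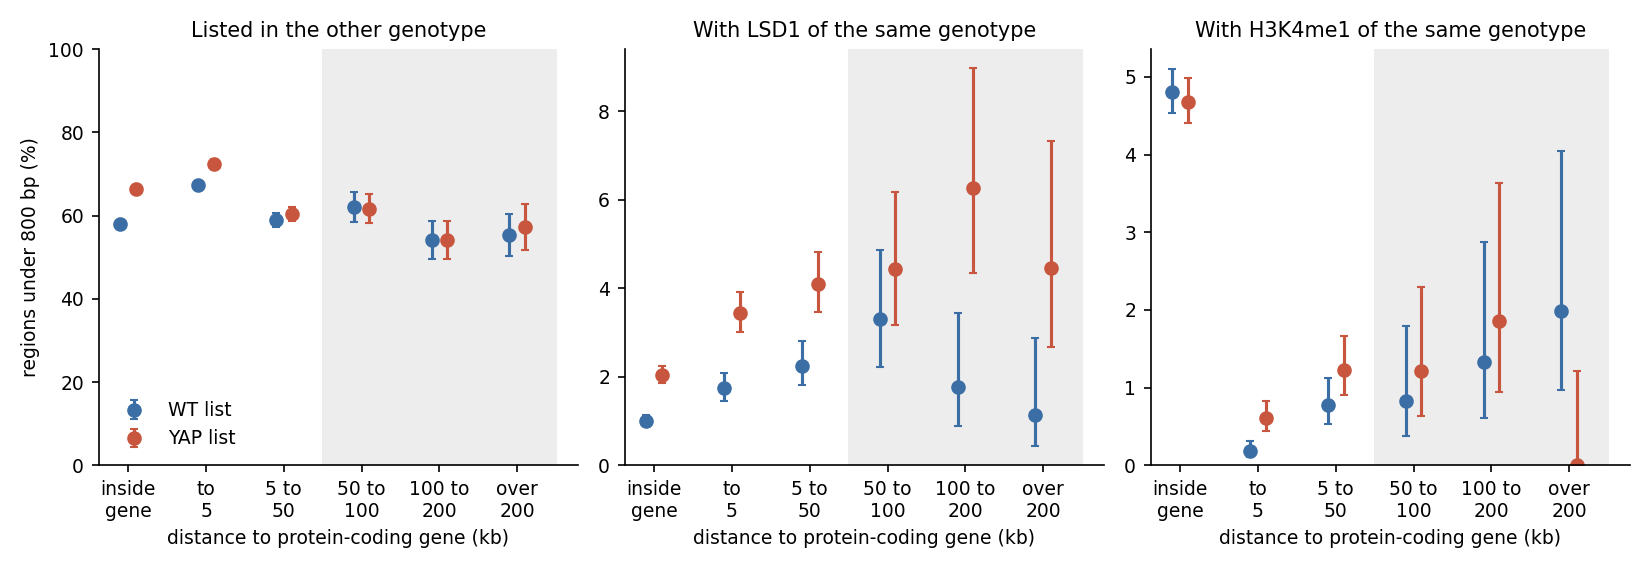
Regions under 800 bp by distance to the nearest protein-coding gene (x axis, kb), with the share (y axis, %) listed in the other genotype, overlapping LSD1 and overlapping H3K4me1 of the same genotype; points are shares in the WT (blue) and YAP (red) lists, bars 95% Wilson intervals, and the grey area marks the distal regions. The share listed in the other genotype is 58.9% (WT) and 60.5% (YAP) at 5 to 50 kb and 62.2% and 61.7% at 50 to 100 kb.

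Whether a distal region was listed in both genotypes followed its score, and the same held for other short regions. In the lowest of 5 score classes 33.8% of WT and 40.1% of YAP distal regions were listed in the other genotype, and in the highest class 89.1% and 85.8%. Other short regions had 37.1% and 49.1% in the lowest class and 92.7% and 93.9% in the highest. Median scores were 79.0 for WT regions listed in both genotypes and 51.0 for WT only, and 77.0 and 51.0 in YAP. Score thus moved with the listing in both genotypes, and its part in the listing of 1 genotype only was not tested. When regions within 1 kb counted as overlapping, 70.5% of WT and 68.6% of YAP distal regions had a partner.

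**Figure D3:**
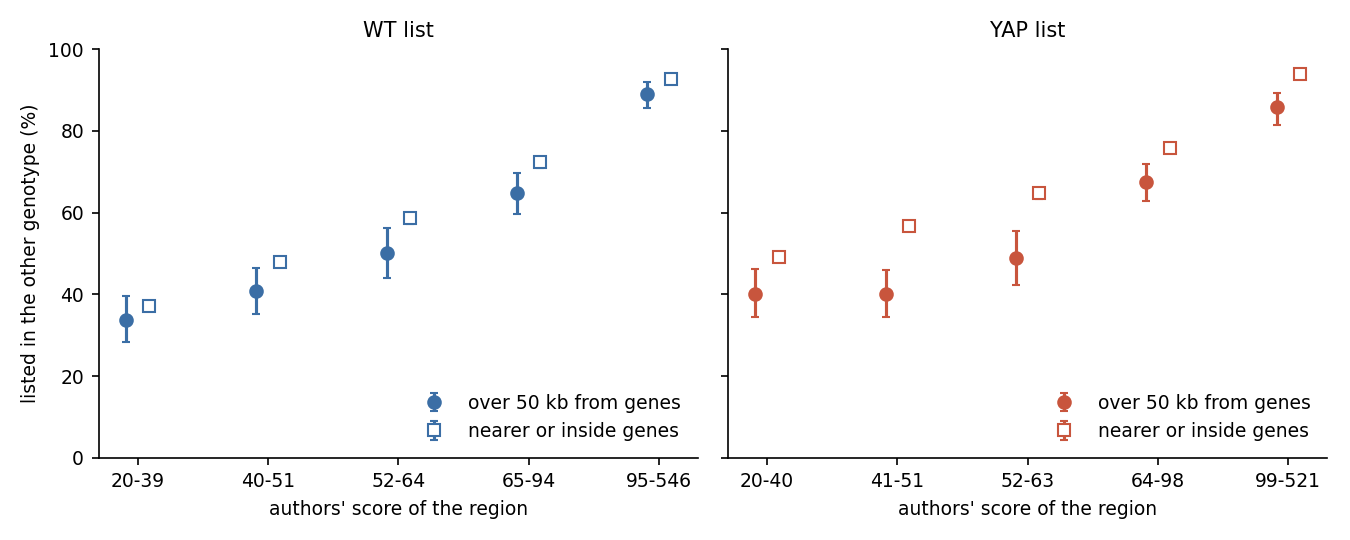
Share of short regions listed in the other genotype (y axis, %) in 5 classes of the authors' score (x axis) for the WT and YAP lists; filled circles are distal regions, open squares short regions nearer to or inside genes, and bars 95% Wilson intervals. The share of distal regions is 33.8% in the lowest and 89.1% in the highest WT class, and 40.1% and 85.8% in the YAP classes.

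The distal regions with the highest scores were listed in both genotypes. The region chr3:52600745-52601055, 251 kb from Foxo1, which encodes an insulin-regulated forkhead factor, had score 383 in WT and 296 in YAP and was 311 bp wide in each. The region chr7:84779287-84779783, 73.8 kb from the olfactory receptor gene Olfr291, had scores 367 and 365. The region chr5:136623210-136623450, 55.6 kb from the homeobox gene Cux1, had score 326 in WT and, 415 bp wide, 442 in YAP.

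Others of this kind were wider in 1 list. Next to Arl5b, which encodes a small GTPase, chr2:15146750-15147030 had scores 333 and 233. The WT region chr1:151132928-151133371 inside the lncRNA gene Gm36139 was 444 bp wide, and its YAP partner was 2841 bp wide. The YAP region chr1:7396832-7397337, 223 kb from Pcmtd1, had score 302 and a WT partner of 1039 bp, and chr7:84749494-84750224 near Zfand6 had score 292 and a WT partner of 800 bp.

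Among WT-only distal regions the highest score was 228, at chr17:16861007-16861538, where the nearest YAP H3K4me2 region was 90428 bp away. The next was chr10:111625806-111626122 with score 220, 117 kb from Phlda1, an apoptosis-related gene. Then came chr7:37214997-37215652, 102 kb from the zinc finger gene Zfp536, with score 198 and no YAP region within 515407 bp. The region chr6:17171276-17171776 near Tes, also 198, had a YAP region only 158 bp away. The fifth, chr14:45988897-45989390 near Ddhd1, had score 161.

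Among YAP-only regions the highest score was 196, at chr18:55258820-55259252, 266 kb from the zinc finger gene Zfp608, where a WT region lay 215 bp away. The next 3 regions shared score 179: chr11:16591743-16592189 near Sec61g, chr8:44704437-44705018 near the atypical cadherin gene Fat1, and chr19:16064124-16064355 near the G protein gene Gnaq. The region chr2:48403959-48404596, 410 kb from the activin receptor gene Acvr2a, had score 151 and no WT H3K4me2 region within 70583 bp, yet overlapped LSD1 of the WT list.

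Width was the second comparison. WT distal regions were 180 to 798 bp wide (median 345 bp), and YAP ones 182 to 798 bp (median 342 bp). Regions listed in both genotypes had a median width of 398 bp in WT, and WT-only regions 280 bp, a difference of 118 bp. In YAP the medians were 386 and 286 bp, a difference of 100 bp. In the higher-scoring 50% of every list the difference was 67.5 bp in WT (6.59 to 113) and 24.5 bp in YAP (-11.4 to 97.6), where the interval includes 0. Of WT distal regions below 250 bp 42.4% were listed in YAP, and of those of 500 bp and more 76.6%. The YAP shares in these width classes were 42.5% and 78.0%. Other short regions had 41.6% and 78.7% in WT and 49.5% and 84.3% in YAP. A wider region also has more bases that can overlap.

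Widths within a site were compared where both regions were under 800 bp, a limit that bounds how far they can differ. In 670 pairs, each a WT distal region and a YAP distal region that overlapped only each other, the median widths were 392 bp in WT and 380 bp in YAP, with a median difference of -7.50 bp, YAP minus WT. The YAP region was the wider in 316 pairs (47.2%), the WT region in 351, and 3 were equal. Over all 12880 such pairs of short regions the YAP region was the wider in 47.2%. Summits were a median of 35.0 bp apart, within 100 bp in 81.3% of pairs.

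Not all partners were short. Of the 893 WT distal regions with a YAP partner, 165 met only regions of 800 bp or more, and 148 of the 871 YAP regions did so in WT. At the width limit the widest distal region was 798 bp in both lists, and the narrowest far region outside it was 800 bp in WT, near Zfand6, and 801 bp in YAP, near Foxi3. At the distance limit the nearest distal region lay 50.1 kb from Atp12a in both lists, and the region just inside the limit was 50.0 kb from Cyp2d40 in WT and 50.0 kb from Zfp608 in YAP.

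**Figure D4:**
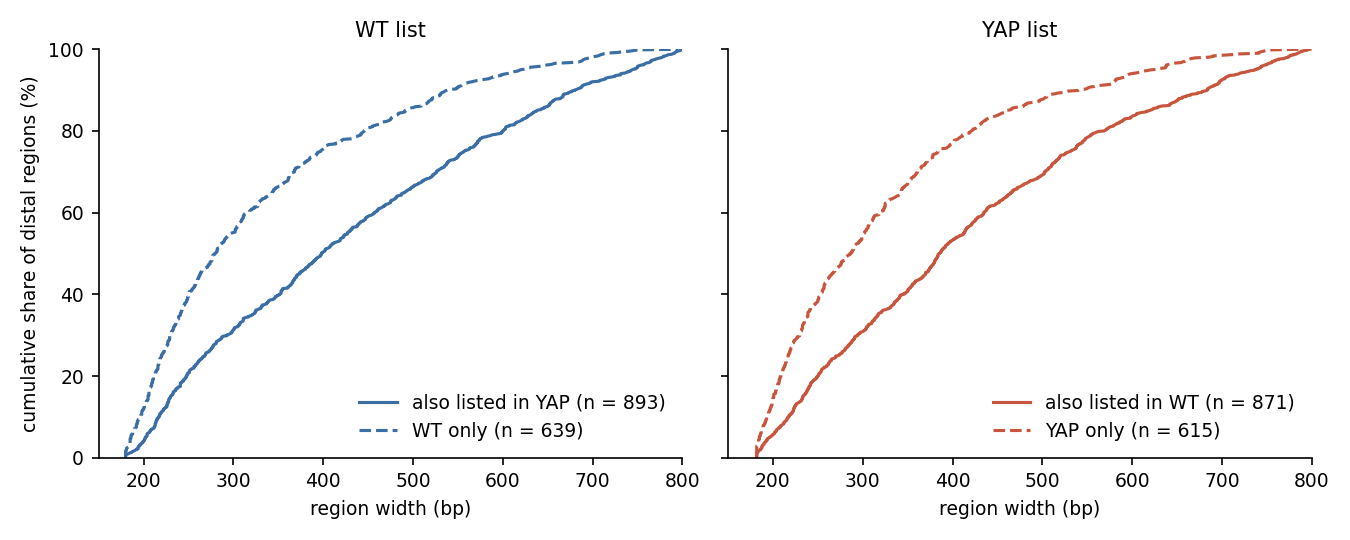
Cumulative share of distal regions (y axis, %) by width (x axis, bp) in the WT and YAP lists; solid lines are regions also listed in the other genotype (893 and 871), dashed lines regions of 1 genotype only (639 and 615). The dashed lines lie above the solid ones, with medians of 280 against 398 bp in WT and 286 against 386 bp in YAP.

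LSD1 was listed at few distal regions. In WT 36 of 1532 (2.35%, 1.70 to 3.24) overlapped a WT LSD1 region, against 2.26% of all WT H3K4me2 regions. In YAP 74 of 1486 (4.98%, 3.99 to 6.21) overlapped a YAP LSD1 region, against 4.23% of all. The YAP share was 2.63 points higher (1.30 to 4.02), but the YAP LSD1 list is longer, with 3353 entries against 1718. With the 1718 highest-scoring entries of each list, chosen as a setting after the data were seen, the shares were 2.35% in WT and 2.36% in YAP (35 regions), so the higher YAP share was not present at equal list length.

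Distal regions carried LSD1 more often than other short regions of the same list. The other short regions had 1.29% in WT and 2.57% in YAP, so distal regions were 1.06 points (0.400 to 1.95) and 2.41 points (1.40 to 3.65) higher. At equal list length the YAP difference was 0.949 points (0.277 to 1.86). With the other short regions reweighted to the width and score classes of the distal regions, the differences were 0.763 points in WT and 2.08 in YAP. In the highest score class the shares were 5.43% of distal against 3.29% of other short regions in WT, and 6.33% against 6.53% in YAP. Against short regions 5 to 50 kb from genes the differences were 0.0953 points (-0.760 to 1.09) and 0.885 points (-0.353 to 2.26), both with 0 inside the interval. Short regions inside genes had the lowest shares, 221 of 22009 in WT and 421 of 20521 (2.05%) in YAP.

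Sites with LSD1 were compared between the lists over 2275 loci, of which 10 overlapped LSD1 of both lists, 33 of the WT list only and 84 of the YAP list only. The 10 were 7.87% of the loci with LSD1 (4.33 to 13.9), against 13.7% (12.6 to 15.0) over all H3K4me2 loci with LSD1, so low sharing held for the lists as a whole. At equal list length these were 10, 33 and 38. Position was measured only where LSD1 and H3K4me2 regions overlapped. The median distance from the centre of the LSD1 region to the H3K4me2 summit was 68.5 bp in WT and 126 bp in YAP, against 121 and 156 bp in other short regions. The centre fell inside the distal region in 27 of 36 WT and 43 of 74 YAP cases (58.1%), against 260 of 413 (63.0%) and 439 of 776 (56.6%) in other short regions.

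Seen from LSD1, 117 of 1500 merged WT regions and 284 of 2949 YAP regions lay more than 50 kb from protein-coding genes. Of these, 35 in WT (29.9%, 22.4 to 38.7) and 73 in YAP (25.7%, 21.0 to 31.1) overlapped a distal region, and 12 and 22 overlapped a longer H3K4me2 region. Of all LSD1 regions, near genes and far, 72.3% in WT and 64.9% in YAP overlapped an H3K4me2 region of any width. Of the far LSD1 regions alone, 60 of 117 in WT and 169 of 284 in YAP had no H3K4me2 region within 1 kb. Distal regions with LSD1 had median scores of 106 against 64.0 without it in WT, and of 77.0 against 63.0 in YAP.

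Among WT distal regions that overlapped LSD1 of both lists, the highest score was near Plekha5, which encodes a pleckstrin homology protein. There chr6:140281064-140281304 had H3K4me2 scores of 187 in WT and 193 in YAP and LSD1 scores of 1000 and 922. Near Rybp, a Polycomb component, the WT region chr6:100356939-100357201 had score 161 and overlapped LSD1 of both lists. Near Aldh8a1, an aldehyde dehydrogenase gene, the YAP region chr10:21465251-21465495 had score 220 and overlapped LSD1 of both lists as well.

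LSD1 of the WT list alone overlapped chr12:71446443-71447019, 126 kb from Dact1, a modulator of Wnt signalling, with H3K4me2 scores 206 in WT and 105 in YAP. It also overlapped chr13:37666777-37667217 in the lncRNA gene AI463229, 111 kb from the zinc finger gene Rreb1, with scores 198 and 196, and chr6:117612704-117613092 near Zfp637, with scores 168 and 98. H3K4me2 was listed in both genotypes at these 3 sites, and LSD1 of the YAP list overlapped none of the 3 WT regions.

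LSD1 of the YAP list alone overlapped chr10:111595911-111596335 in the lncRNA gene Gm30262, 87.3 kb from Phlda1, with score 187 and a WT H3K4me2 partner of 1800 bp. It overlapped the Zfp608 region with an LSD1 score of 608, and chr17:80786507-80786912 near the kinase gene Map4k3, chr1:88639659-88640298 near the small GTPase gene Arl4c and chr6:31314184-31314553 near Mkln1, all 3 without a WT H3K4me2 region at the site. The H3K4me2 scores of these 3 were 120, 98 and 90.

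H3K4me1 was listed at still fewer distal regions. In WT 19 (1.24%, 0.795 to 1.93) overlapped a WT H3K4me1 region, against 4.80% of all H3K4me2 regions, and in YAP 17 (1.14%, 0.715 to 1.82), against 4.60%. Distal regions were 2.18 points lower than other short regions in WT (-2.67 to -1.46 as distal minus other) and 2.30 points lower in YAP (-2.78 to -1.59). Short regions inside genes had 4.81% in WT and 4.68% in YAP, and those outside genes but within 5 kb had 0.180% and 0.605%. The distal regions were lower than the short regions inside genes and not lower than those within 5 kb.

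Short regions 5 to 50 kb from genes had 0.771% in WT and 1.23% in YAP. Against these the distal regions differed by 0.469 points (-0.101 to 1.20) and -0.0875 points (-0.702 to 0.667), with 0 inside both intervals. The H3K4me1 lists are short, with 5905 and 6274 regions, and hold 0 regions on X and Y, where 28 WT and 30 YAP distal regions lay. Of the 2275 loci 2 overlapped H3K4me1 of both lists, 23 of the WT list only and 22 of the YAP list only. The 2 were 4.26% of the loci with H3K4me1 (1.17 to 14.2), against 25.2% (23.9 to 26.4) over all H3K4me2 loci with H3K4me1 and 528 of 2779 such loci of other short regions (17.6 to 20.5%).

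The H3K4me1 sites had lower H3K4me2 scores than the LSD1 sites, with medians of 47.0 in WT and 45.0 in YAP. The highest was chr3:21791767-21792397, 284 kb from Tbl1xr1, a corepressor subunit gene, with score 110 in WT and no YAP H3K4me2 region within 139944 bp. In YAP it was chr3:21962645-21963188, 113 kb from the same gene, with score 98 and a WT partner of score 78. The other WT regions among the 5 highest lay up to 8.45 kb from the Mir30a hairpin (score 86), beside Mir101a (66), 99.8 kb from Lpp (78) and 70.4 kb from Trpm3 (64). The other YAP regions lay near Mkln1 (90), Sema6a (84), Phlda1 (77) and Tmpo (64). No distal region overlapped both LSD1 and H3K4me1 of its own genotype (0 of 36 in WT, which allows a share of up to 9.64%, and 0 of 74 in YAP, up to 4.93%). With H3K4me1 at 1.24% of all WT and 1.14% of all YAP distal regions, so few regions with LSD1 cannot show whether the 2 exclude each other. The like share over all H3K4me2 regions is not given.

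Of 12727 lncRNA genes, 279 in WT and 283 in YAP held a distal region, with 495 and 496 regions in all. The genes named here were chosen after their counts were seen. Their lengths are 125 kb (Lncpint), 229 kb (Mir99ahg) and 131 kb (Morrbid), and the counts are not set against length. Lncpint, a p53-linked lncRNA, held 12 in each list. Mir99ahg, a lncRNA gene named for the miR-99a cluster, held 12 in WT and 11 in YAP, of which 3 and 6 were of 1 genotype only. Morrbid, a lncRNA of myeloid cell survival, held 8 in WT and 4 in YAP.

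Being inside a lncRNA gene did not go with presence in both genotypes beyond counting error. The share listed in the other genotype was 58.0% inside and 58.4% outside such genes in WT, a difference of -0.458 points (-5.76 to 4.78), and the difference in YAP was -1.43 points (-6.76 to 3.84). The differences in LSD1 were -0.189 points (-1.68 to 1.69) and -0.212 points (-2.41 to 2.35).

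Distal regions stood more alone than other short regions. Another H3K4me2 region of the same list lay within 5 kb of 55.3% of them in WT and 50.1% in YAP, against 86.7% and 84.9% of other short regions. Short regions 5 to 50 kb from genes were closer to the distal ones, with 65.7% and 61.5%. Far regions of 800 bp or more had 66.2% and 61.2%. Distance to genes chose the distal regions, so this is a description. Among the autosomes the share of regions that were distal ran from 1.12% on chromosome 19 to 5.60% on chromosome 13 in WT.

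The farthest regions lay in very large gene-free stretches. On chromosome 11, chr11:38681598-38681906 was 1445 kb from Tenm2, a teneurin gene, and was listed in both genotypes with scores 134 and 105, next to a second region of both lists. The farthest YAP region, chr14:81486255-81486436, was 1463 kb from Olfm4 with score 34, and no WT H3K4me2 region lay within 1714707 bp. The WT region chr8:100855766-100855946, 1438 kb from the cadherin gene Cdh8, had score 31 and was listed in WT only.

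The nearest protein-coding gene is a position and not a target. Of 21887 protein-coding genes, 712 (3.25%) were nearest to a distal region in WT, 725 (3.31%) in YAP and 534 in both. The highest counts were at Eea1, an early endosome gene (17 WT and 11 YAP), Adgrl2, an adhesion receptor gene (13 and 14), Usp25, a deubiquitinase gene (14 and 13), Foxo1 (13 and 10) and Lpp, a focal adhesion gene (14 and 9).

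Some genes had more distal regions of 1 genotype. The genes named here were picked for having the most WT-only or YAP-only regions, so their uneven counts follow in part from that choice. Rreb1 had 13 in WT, 7 of them WT only, and 6 in YAP, 1 of them YAP only. Phlda1 had 10 and 8, with 7 WT only and 0 YAP only. Reep3, an endoplasmic reticulum gene, had 6 and 12, with 0 WT only and 6 YAP only. Tbl1xr1 had 9 and 6, with 7 WT only and 3 YAP only, and Zfp608 had 9 and 13, with 1 WT only and 6 YAP only. Map4k3 had 2 and 6, with 0 WT only and 5 YAP only. Usp25 had near-equal numbers, 14 and 13, with 5 WT only and 8 YAP only. In the lncRNA gene Gm30262 beside Phlda1, YAP distal regions of 798, 673 and 425 bp had WT partners of 1803, 3296 and 1800 bp, so the WT counterparts exceeded the width limit.

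**Figure D5:**
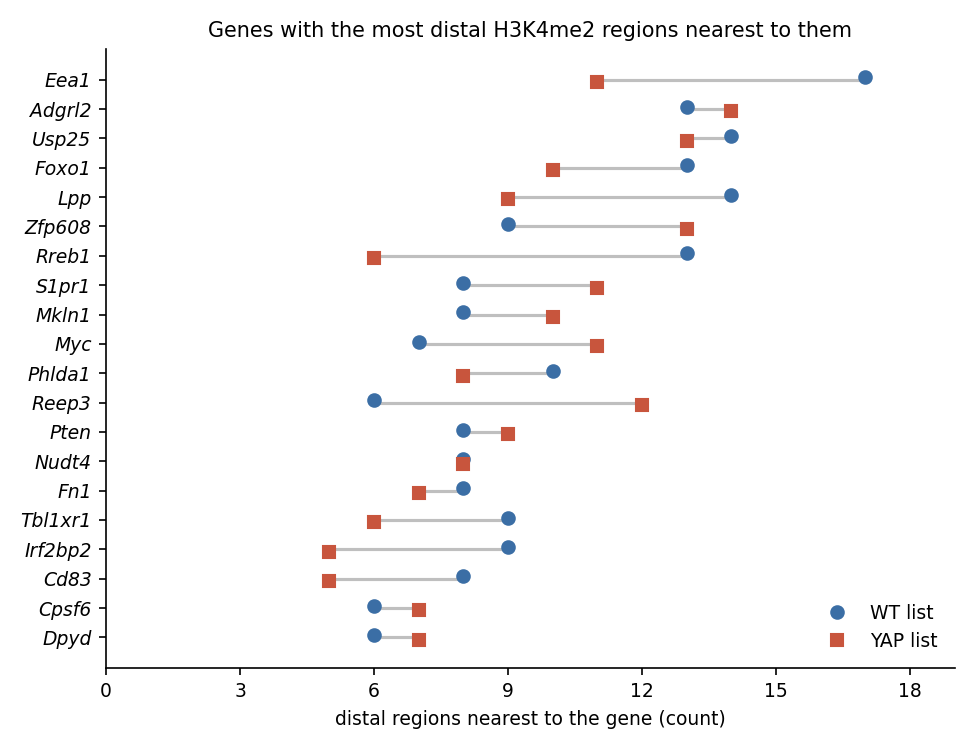
Number of distal regions (x axis) nearest to each of the 20 protein-coding genes with the most of them, in the WT list (blue circles) and the YAP list (red squares); a grey line joins both counts. Eea1 has 17 in WT and 11 in YAP, Rreb1 13 and 6, and Reep3 6 and 12.

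Gene lists were read against the background of 3.25% and 3.31%, as counts without a test. This background covers all protein-coding genes, and it was not matched to the gene lists for distance to neighbouring genes. Most gene lists were above it, the macrophage and leukocyte genes among them with 16.7% in each genotype. The polyamine and hypusination genes, and in YAP the stellate genes, were below it. A count above the background is therefore not read as enrichment of a gene list. Of 20 known YAP target genes, 3 in each list were nearest to a distal region. Ccn2, a canonical target that encodes a matricellular growth factor, had 2 WT regions and 1 YAP region, Myof had 1 in each, Asap1 had 1 WT region, which overlapped LSD1, and Rbms3 had 1 YAP region. Of 12 polyamine and hypusination genes, the pathway in the study's title, 0 were nearest to a distal region in either list.

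Of 20 hepatocyte transcription factor and nuclear receptor genes, 8 in WT and 5 in YAP were nearest to a distal region, with 19 and 15 regions. Of these regions 11 of 19 were WT only and 3 of 15 YAP only, against 639 of 1532 and 615 of 1486 over all distal regions. Ppara, the fatty acid receptor of the liver, had 6 and 4 and gave 5 of the 11 WT-only regions. Foxa2, a pioneer factor, had 3 in each, Prox1, a hepatoblast factor, had 2 and 4, and Nr5a2, a bile acid regulator, had 2 and 3. Onecut1 had 3 and 1, of which the YAP region overlapped LSD1, and Cebpb, Nfia and Rxra had 1 WT region each, that of Cebpb with LSD1.

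Of 15 biliary and progenitor genes, 5 in WT and 4 in YAP were nearest, among them Sox4 with 3 in each, Epcam and Cd24a with 2 and 1, Hes1, a Notch target, with 1 in each and Sox9 with 1 in WT and 0 in YAP. Of 25 transcription factor genes known to lie in gene deserts, 14 in WT and 12 in YAP were nearest, with 30 and 32 regions. Klf6 had 1 and 5, Nr2f2 and Sox5 had 4 in each, and Zeb2 had 4 and 3. This list was made of genes with gene-poor surroundings, so its count is not independent of the distance limit.

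Of 11 circadian and growth genes, 10 were found in the gene table by symbol. In each list 3 were nearest to a distal region, with Myc at 7 WT and 11 YAP regions, of which 2 were WT only and 5 YAP only. Ghr, the growth hormone receptor gene, and Igf1 had 1 in each list, listed in both genotypes. Of 12 macrophage and leukocyte genes 2 in each list (16.7%) were nearest to a distal region, Ptprc, a leukocyte gene, with 5 and 4 and Irf8 with 1 in each. Of 10 endothelial genes 2 in WT and 3 in YAP were, where Kdr had 3 and 1, Ets1 0 and 2 and Maf 1 in each. Of 9 stellate genes only Hand2 had any, 1 in WT.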

How the data were processed

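Libraries were 12 antibody and 2 input libraries of mouse liver, digested with micrococcal nuclease per the labels' protocols. The submitters' processing notes name the build mm10 and, without their roles, deepTools 3.3.0, bedtools 2.26.0, Picard 1.126, SAMtools 1.7, BWA and Trimmomatic 0.39. How and with what threshold regions were called, and with which input, is not stated in any label or header. Per the labels, both replicates share 1 list. The deposited files give per region a score, a signal (an enrichment) and, for the histone marks, −log10 of the p-value, all made by the authors. The score only ranks regions within a list, and the signal breaks ties.

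Genes were those of RefSeq (GRCm38.p6, the coordinates of mm10), 21887 of them protein-coding. Regions overlapped where they had at least 1 bp in common, and touching LSD1 regions were merged. Scripts ran in Python 3.11.15 with pandas 2.3.3, numpy 2.4.6 and matplotlib 3.10.9. The overlap code was checked against bedtools 2.31.1 on simulated data. No genome was used, so the planned sequence composition was read in RefSeq promoter windows only. Named were the 5 highest-scoring regions per class and mark, the 3 farthest, those next to each limit, the 5 genes with the most regions per class, and genes of the lists (4 where more than 8 had a region). The regions, lists and rules were chosen with earlier results of these data known. Alternatives are given in the closing section.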

Additional observations from a re-analysis of the deposited data

How the results depend on the processing

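Values are WT then YAP. Numbers of distal regions were 2868 and 2808 beyond 20 kb, 804 and 744 beyond 100 kb, 228 and 215 far from all annotated genes, 521 and 432 in the higher-scoring 50% of every list, and 837 and 874 with H3K4me2 regions within 1 kb joined, moves that the settings' construction gives. Shares listed in the other genotype were 41.8% and 43.0% with an overlap of 50% of both regions, 70.5% and 68.6% within 1 kb, 54.7% and 55.5% beyond 100 kb, 64.7% and 65.5% with no width limit, 52.2% and 54.0% far from all genes, 54.5% and 62.0% in the higher-scoring 50%, and 56.4% and 55.8% with regions joined. WT was the lower by 0.324 points in the main setting (-3.19 to 3.84) and the higher within 1 kb and with regions joined, so no order is read. Median widths of regions of both genotypes minus those of 1 were 92.5 and 80.0 bp within 1 kb, 233 and 210.0 bp with no width limit, 67.5 and 24.5 bp (-11.4 to 97.6) in the higher-scoring 50%, and 94.0 bp in WT far from all genes. LSD1 shares were 1.50% and 2.42% with an overlap of 50%, 4.24% and 8.82% within 1 kb, 3.95% and 9.30% far from all genes, 1.49% in WT beyond 100 kb, 3.94% in YAP in the higher-scoring 50%, and 2.36% in YAP with LSD1 lists of equal length. H3K4me1 shares were 0.522% and 0.740% with an overlap of 50%, 2.22% and 2.96% within 1 kb, 0.465% in YAP far from all genes, and 0.384% and 0% in the higher-scoring 50%; here too the order of the genotypes changed. The share inside genes that are not protein-coding was 5.67% without Gm and Rik symbols. Of these alternative values 46 moved beyond the interval or 1.5 times the count and 43 did not; where construction does not give it, the cause was not tested. The equal-length setting was chosen after seeing the data.

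No paired analysis was possible because each list combines both replicates. For the same reason no setting leaves out a replicate. Depth is unknown, and a region missing from a list is not shown to lack the mark.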

Other observations

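Distal regions were densest in a few windows of 500 kb. Around Eea1 and Nudt4, chr10:95658773-96158772 held 23 WT and 18 YAP distal regions, with 0 on LSD1 in either list, and the lncRNA gene Gm33377 there held 10 and 9. Between Ly86 and Rreb1, chr13:37478112-37978111 held 17 and 9, of which 3 WT and 2 YAP regions overlapped LSD1. Near Phlda1, chr10:111363944-111863943 held 15 and 9, with 11 WT only and 0 YAP only. Near Klf14 and Mkln1, where Lncpint lies, chr6:31116081-31616080 held 13 and 17, and near the sphingosine phosphate receptor gene S1pr1, chr3:115611779-116111778 held 8 and 13, with 1 WT only and 4 YAP only.

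Distal regions were also set beside the LSD1 list of the other genotype, of which the YAP list is the longer. WT distal regions overlapped the YAP LSD1 list in 60 cases (3.92%, 3.05 to 5.01), and YAP distal regions overlapped the WT LSD1 list in 26 (1.75%, 1.20 to 2.55). WT distal regions listed in both genotypes overlapped YAP LSD1 in 47 of 893 cases and WT-only regions in 13 of 639, a difference of 3.23 points (1.32 to 5.09). The like difference for YAP distal regions and WT LSD1 was 1.60 points (0.240 to 2.93). With LSD1 of the same genotype it was 0.810 points (-0.821 to 2.32) in WT and 1.28 (-1.03 to 3.46) in YAP. Both of these intervals include 0. Regions listed in both genotypes also had higher scores, and the part of score here was not tested. Among YAP-only loci 26 of 615 overlapped LSD1 of the YAP list only, 5 of the WT list only and 0 of both. Among the 639 WT-only loci 10 overlapped LSD1 of the YAP list only, 9 of the WT list only and 3 of both. Over the 1021 loci listed in both genotypes these counts were 48, 19 and 7, and over all 2275 loci 84, 33 and 10. The longer YAP LSD1 list was used throughout these counts.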
